A study of Mus musculus with 7 samples.

Results

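The genes described here are 10 chromatin partners of Ikaros other than the NuRD complex, taken from the deposited table by their symbols. They are Ezh1, Ezh2, Eed, Suz12 and Jarid2 of Polycomb repressive complex 2 (PRC2), Smarca4, Smarcb1 and Smarcc1 of the SWI/SNF remodelling complexes, and the corepressor genes Ctbp1 and Sin3a. All 10 were found among the 16734 genes of the table. Ikaros, a zinc finger transcription factor of lymphocytes encoded by Ikzf1, was mutated in 2 of the 3 groups of mice. The study measured polyadenylated RNA of the thymus at 4 weeks of age. There were 3 libraries from C57BL/6 wild type mice, 2 from mice labelled Ikaros ZnF1-/- and 2 from mice labelled Ikaros ZnF4-/-. The sample titles say thymus, while the deposited values are named as those of thymocytes. By the series title, the mutations concern single zinc fingers of the part of Ikaros that binds DNA, here the first or the fourth. The labels give neither the strain background of the mutants nor the number of animals in a library, and nothing in them restricts a mutation to 1 cell type. The study asks what each finger does, and for these genes the question is whether the RNA of the partner proteins differed when a finger was lost.

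Ikaros recruits proteins that modify or move nucleosomes, and so can silence or activate the genes it binds. PRC2 places methyl groups on lysine 27 of histone H3, a mark of silenced genes. Its catalytic subunit is EZH2 or, in cells that divide little, more often EZH1, and EED and SUZ12 are the scaffold without which either is inactive. SWI/SNF complexes use ATP to slide or evict nucleosomes and often work against Polycomb. CtBP1 and SIN3A are bridging proteins that bring histone deacetylases and other enzymes to repressors such as Ikaros. Developing thymocytes depend on PRC2 and on the SWI/SNF ATPase BRG1, the product of Smarca4, when they proliferate and rearrange their receptor genes.

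The sequences just upstream of all 5 PRC2 genes are shown because they encode 1 complex, and because Ezh2 and Eed among them had the lowest levels relative to wild type in ZnF4-/-. Each is the 150 bases before the start site in the RefSeq promoter table (build GRCm38.p6), placed on mm9 by exact match, and read 5′ to 3′ on the strand of the gene. Capitals mark GGGAA, the core of the sequence that Ikaros binds, which was searched on both strands. The Ezh2 window is chr6:47545030-47545179, minus strand, and lies in no annotated exon. The Eed window is chr7:97129487-97129636, minus strand, of which 7 bases lie in an annotated Eed exon. The Suz12 window is chr11:79806458-79806607, plus strand, directly before the first exon, and the Ezh1 window is chr11:101087778-101087927, minus strand, likewise directly before the first exon. Jarid2 has a pair of windows, chr13:44825993-44826142 and chr13:44826490-44826639, plus strand, within the gene but in no exon.
Ezh2: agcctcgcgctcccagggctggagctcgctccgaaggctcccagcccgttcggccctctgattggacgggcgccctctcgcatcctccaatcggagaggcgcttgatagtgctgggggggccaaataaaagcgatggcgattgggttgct
Eed: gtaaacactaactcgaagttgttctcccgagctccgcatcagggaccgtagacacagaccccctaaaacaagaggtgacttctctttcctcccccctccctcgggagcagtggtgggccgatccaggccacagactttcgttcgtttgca
Suz12: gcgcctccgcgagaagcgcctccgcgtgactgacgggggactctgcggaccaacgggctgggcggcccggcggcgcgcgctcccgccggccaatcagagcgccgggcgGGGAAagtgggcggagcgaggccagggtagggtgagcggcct
Ezh1: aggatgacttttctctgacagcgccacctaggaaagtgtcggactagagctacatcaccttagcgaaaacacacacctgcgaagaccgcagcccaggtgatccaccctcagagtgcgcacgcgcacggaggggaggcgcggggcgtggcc
Jarid2, first window: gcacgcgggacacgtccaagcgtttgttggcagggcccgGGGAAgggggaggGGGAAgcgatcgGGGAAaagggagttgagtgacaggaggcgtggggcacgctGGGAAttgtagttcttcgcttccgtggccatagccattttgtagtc
Jarid2, second window: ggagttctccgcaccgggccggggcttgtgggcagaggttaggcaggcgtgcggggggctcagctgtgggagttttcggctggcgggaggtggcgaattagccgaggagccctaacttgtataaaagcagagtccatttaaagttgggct

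The Suz12 window held the motif once, 42 to 38 bases before the start, and the first Jarid2 window held it 4 times. The Ezh2, Eed, Ezh1 and second Jarid2 windows held no GGGAA, which says only that these letters are not in these 150 bases. Of the PRC2 genes without the motif in their windows, Ezh2 and Eed were below wild type in ZnF4-/- in both batches, and Ezh1 was above. A part of the motif in these levels was not tested. The table gave 12 windows for the 10 genes, of which 6 held the motif, against 38.9% of all 32851 windows of the same length. A match is a description of the letters and not evidence of binding.

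The values are RPKM, which are reads over the exons of a gene, scaled to its length in kilobases and to the mapped reads of the library. The sequencing depth is not given in the sources used here, so the counting error of a value is unknown. Between 10185 and 10695 genes per library were at 1 RPKM or more. Replicate 1 of each group was sequenced as 76 bp reads on an Illumina GAIIx and the replicates 2, 2A and 2B as 50 bp reads on a HiSeq, so the replicate number also marks a sequencing batch. The batches differed in sex as well, since Xist, which is expressed from the inactive X chromosome of females, ranged from 90.6 to 109 RPKM at 76 bp and was at most 0.03 RPKM at 50 bp. All 8 T cell and thymocyte markers examined, among them Cd4 and Rag1, were above 1 RPKM in each group. The 6 thymic epithelial markers summed to between 2.24 and 4.69 RPKM per library. In RNA from mixed cells, fewer cells of a type and less RNA per cell cannot be told apart. All 10 genes exceeded the filter of a mean of 1 RPKM and were tested.

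All 10 genes were expressed in each library, and their order was similar in the 3 genotypes. In wild type, Smarca4 was highest at 88.5 ± 21.8 RPKM (SD, n = 3), followed by Ezh2 at 79.5 ± 8.82 RPKM and Ctbp1 at 76.4 ± 28.5 RPKM. These are among the abundant transcripts of the thymus, above 98.3%, 97.8% and 97.7% of the listed genes. Sin3a (37.2 ± 5.40 RPKM), Smarcc1 (36.7 ± 3.94 RPKM), Smarcb1 (30.1 ± 7.02 RPKM) and Suz12 (27.9 ± 2.09 RPKM) formed a middle range. Jarid2 (23.5 ± 1.97 RPKM), Eed (21.3 ± 3.50 RPKM) and Ezh1 (11.7 ± 1.34 RPKM) were lowest. The wild type ranges of neighbours were separate only between Ctbp1 and Sin3a, between Suz12 and Jarid2 and between Eed and Ezh1, and these 3 steps held in all 7 libraries. Smarcc1 above Smarcb1 and Jarid2 above Eed also held within each of the 7 libraries, although their ranges overlapped. Smarca4 was above Ezh2 in 6 of 7 libraries, while Ezh2 and Ctbp1 could not be ordered, since Ezh2 was above Ctbp1 in 4 of 7.

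**Figure D1:**
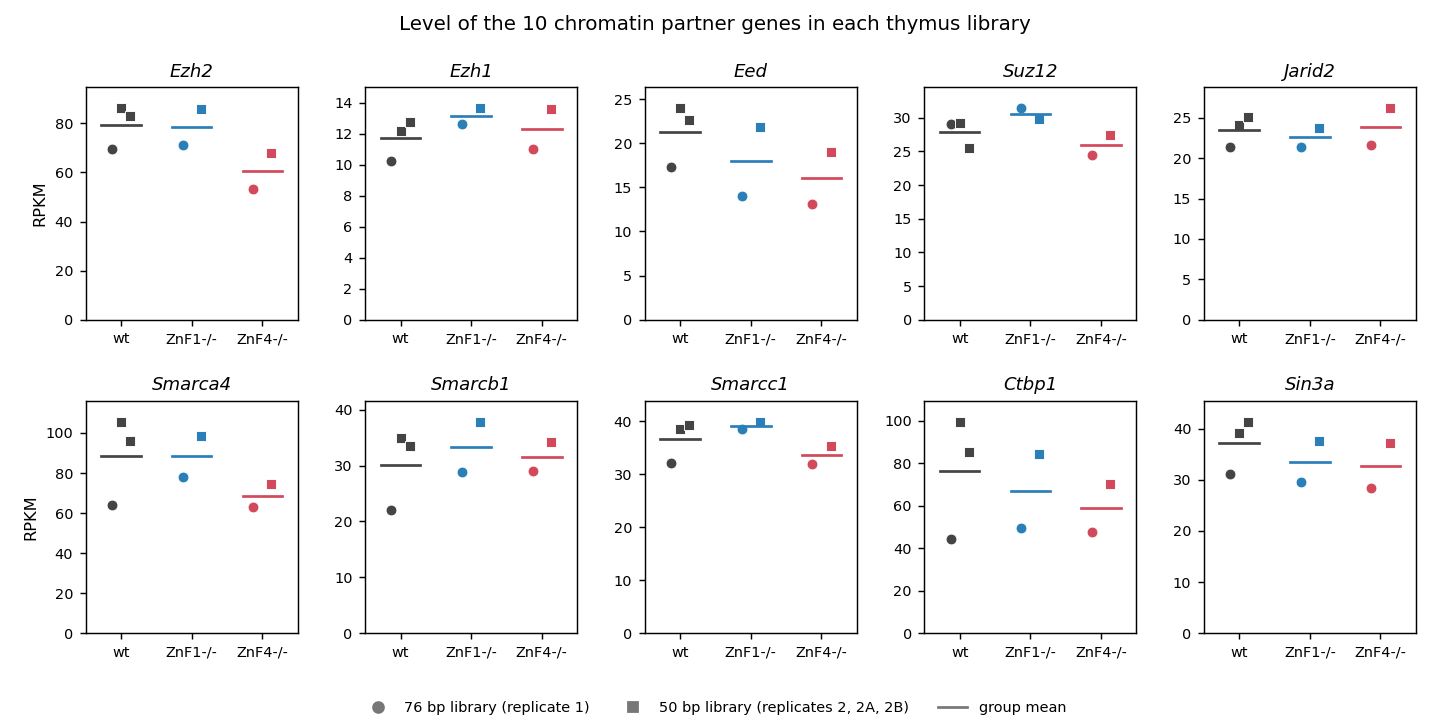
Level of each of the 10 genes in RPKM (vertical axes, from 0) in wild type, ZnF1-/- and ZnF4-/- thymus, with 1 point per library, circles for 76 bp and squares for 50 bp reads, and a line at the group mean. Ezh2 alone has both ZnF4-/- points (53.1 and 67.8 RPKM) below each wild type point, and for most genes the squares lie above the circles within a genotype.

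Ezh2 (chromosome 6, 47480273 to 47545340, minus strand, mm9), the main methyltransferase gene of PRC2, was lower in ZnF4-/- than in wild type in both batches, but the difference did not pass the test. It was at 69.5, 86.1 and 82.9 RPKM in wild type replicates 1, 2A and 2B. In ZnF1-/- it was at 71.2 RPKM in replicate 1 and 85.8 RPKM in replicate 2. In ZnF4-/- it was at 53.1 RPKM in replicate 1 and 67.8 RPKM in replicate 2. Both ZnF4-/- libraries were therefore below all other libraries, while ZnF1-/- lay within the wild type range. Against wild type of the same batch, ZnF4-/- differed by -23.6% at 76 bp and by -19.8% at 50 bp, and ZnF1-/- by 2.45% and 1.54%. The log2 fold change in ZnF4-/- was -0.40 ± 0.19 (SE; limma adjusted p = 0.596). With the replicate number as a block it was -0.35 ± 0.09, with an adjusted p of 0.052 and a 95% interval from -0.55 to -0.14. That blocked adjusted p was just above the threshold of 0.05. It was 0.0409 when the libraries were also scaled to a common median, 0.0857 without a trend in the prior variance and 0.13 when wild type 2A and 2B were averaged, all of which were tried after seeing the data. In the blocked fit the 10498 tested genes had a median change of -0.02.

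Genes of the cell cycle are given beside Ezh2 because their sum was also lowest in ZnF4-/-. The summed level of 16 proliferation genes was 811 to 870 RPKM in wild type, 829 to 861 RPKM in ZnF1-/- and 707 to 755 RPKM in ZnF4-/-. The ZnF4-/- sums did not overlap those of either group. Among single tested genes, 10.6% were wholly below wild type in ZnF4-/- and 16.8% wholly below ZnF1-/-. How often sums over other genes separate the groups was not computed. Against wild type of the same batch, 11 of the 16 were below in both batches, and the other 5 (Mki67, Mcm5, Mcm7, Aurkb and E2f1) were above in 1 batch. Of all tested genes, 29.2% were below wild type in both batches in ZnF4-/- and 25.1% were above. The same shares stand beside the marker counts that follow. In the unblocked fit 0 passed, and in the blocked fit 2 of 16 fell in ZnF4-/-, where 8.22% of all tested genes were called. They were E2f2, a transcription factor that drives S phase genes (log2 fold change -0.40, adjusted p = 0.0422), and Pcna, the sliding clamp of DNA replication (-0.58, adjusted p = 0.00689). The 6 myeloid markers summed to 81.4 and 104 RPKM in ZnF4-/- against 44.2 to 61.8 RPKM in wild type. Lyz2 made up most of that sum, at 56.8 and 73.9 RPKM in ZnF4-/-, and 3 of the 6 (Csf1r, Cd68 and Emr1) were below wild type at 76 bp. The 5 erythroid markers summed to 48.9 and 62.6 against 12.2 to 31.9 RPKM, of which Hbb-b1 made up 43.4 and 44.9 RPKM in ZnF4-/-, and 2 of the 5 were above wild type in both batches. The 6 fibroblast and stroma markers summed to 6.12 and 3.93 RPKM in ZnF4-/-, 2.5 and 3.62 RPKM in ZnF1-/- and 1.37 to 2.03 RPKM in wild type. Pdgfrb alone made up 5.62 and 3.21 RPKM of the ZnF4-/- sums, the collagen genes were at most 0.25 RPKM, and Pdgfra was at 0 in each library. The 8 T cell markers summed to 3632 RPKM at 76 bp and 4140 RPKM at 50 bp in ZnF4-/-. In wild type they summed to 3891 RPKM at 76 bp and to 4914 and 4999.95 RPKM at 50 bp. Of the 8, Cd4, Cd8a, Lck, Rag1 and Thy1 were below wild type in both batches, and the other 3 were above in both. The part of these cell types and of the cell cycle in the lower Ezh2 was not tested.

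Eed (chromosome 7, 97103166 to 97129493, minus strand), which encodes the subunit that reads methylated lysine 27, had the same direction as Ezh2 in ZnF4-/-. Its level was 17.3, 23.9 and 22.6 RPKM in wild type replicates 1, 2A and 2B, 14.1 and 21.8 RPKM in ZnF1-/- replicates 1 and 2, and 13.1 and 19.0 RPKM in ZnF4-/- replicates 1 and 2. Within each batch the order was wild type, ZnF1-/-, ZnF4-/- from high to low, but the groups overlapped because the batches differed. The log2 fold change in ZnF4-/- was -0.41 ± 0.26 (adjusted p = 0.789) and in the blocked fit -0.32 ± 0.10 (adjusted p = 0.0927). In ZnF1-/- the blocked value was -0.17 ± 0.10 (adjusted p = 0.703).

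Suz12 (chromosome 11, 79806608 to 79847625, plus strand), the scaffold subunit that binds nucleosomes, was highest in ZnF1-/-, and its differences did not pass the test. It was at 29.1, 29.2 and 25.5 RPKM in wild type replicates 1, 2A and 2B, at 31.4 and 29.8 RPKM in ZnF1-/- replicates 1 and 2, and at 24.5 and 27.5 RPKM in ZnF4-/- replicates 1 and 2. Both ZnF1-/- libraries were above the 3 wild type libraries and both ZnF4-/- libraries were below ZnF1-/-. With the block, ZnF1-/- gave a log2 fold change of 0.13 ± 0.11 (adjusted p = 0.832). The value was -0.10 ± 0.11 for ZnF4-/- (adjusted p = 0.678) and -0.23 ± 0.12 in ZnF4-/- against ZnF1-/- (adjusted p = 0.322).

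Jarid2 (chromosome 13, 44824843 to 45017012, plus strand), which encodes a protein that helps PRC2 find its targets, was close to wild type in both mutants. It was at 21.3, 21.4 and 21.6 RPKM in replicate 1 of wild type, ZnF1-/- and ZnF4-/-. In the 50 bp libraries it was at 24.1 and 25.1 RPKM in wild type, 23.8 RPKM in ZnF1-/- and 26.2 RPKM in ZnF4-/-. The blocked 95% interval of its log2 fold change ran from -0.23 to 0.19 in ZnF1-/- and from -0.15 to 0.26 in ZnF4-/-.

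Ezh1 (chromosome 11, 101052429 to 101087777, minus strand), the less active paralog of Ezh2, was above wild type in both mutants, though not past the test. It was at 10.2, 12.2 and 12.8 RPKM in wild type replicates 1, 2A and 2B, at 12.6 and 13.6 RPKM in ZnF1-/- replicates 1 and 2, and at 11 and 13.6 RPKM in ZnF4-/- replicates 1 and 2. Each mutant library was above wild type of its own batch, and the groups overlapped. Neither mutant passed, with blocked values of 0.20 ± 0.10 for ZnF1-/- and 0.10 ± 0.10 for ZnF4-/- on the log2 scale (limma adjusted p = 0.647 for each).

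Because RPKM is per length, the catalytic subunits could be set against each other within a library. Ezh2 was 6.79, 7.06 and 6.48 times the level of Ezh1 in wild type replicates 1, 2A and 2B. The ratio was 5.64 and 6.29 in ZnF1-/- replicates 1 and 2, and 4.83 and 4.98 in ZnF4-/- replicates 1 and 2. The 3 genotypes did not overlap, with group means of 6.78 ± 0.288 (SD, n = 3), 5.96 ± 0.463 (n = 2) and 4.90 ± 0.11 (n = 2). Wild type 2B (6.48) and ZnF1-/- replicate 2 (6.29) were nearer to each other than wild type 2A (7.06) was to 2B. How often the ratios of other gene pairs separate the groups was not computed, here or for the ratios below. As a share of both genes together, Ezh2 made up 86.6% to 87.6% in wild type, 84.9% and 86.3% in ZnF1-/- and 82.8% and 83.3% in ZnF4-/-. The ratio was not tested. An exact permutation test of 3 libraries against 2 could not go below p = 0.1. The ratio of Ezh2 to Eed did not follow genotype in this way, at 3.60 to 4.01 in wild type, 3.93 and 5.06 in ZnF1-/- and 3.57 and 4.05 in ZnF4-/-.

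**Figure D2:**
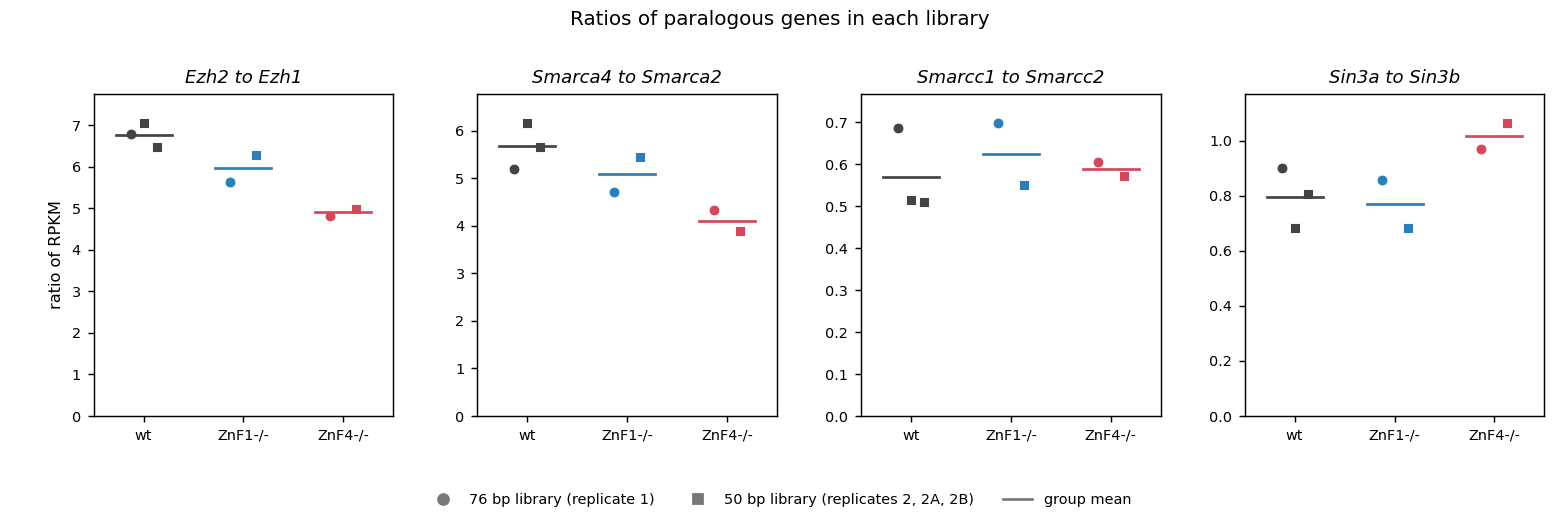
Ratio of RPKM between paralogous genes (vertical axes, from 0) by genotype, with 1 point per library, circles for 76 bp and squares for 50 bp reads, and a line at the group mean. The Ezh2 to Ezh1 ratio falls in 3 separate ranges, of which wild type and ZnF1-/- nearly meet (6.48 and 6.29). Both ZnF4-/- libraries have the lowest Smarca4 to Smarca2 ratios (4.33 and 3.89) and the highest Sin3a to Sin3b ratios (0.969 and 1.06).

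Smarca4 (chromosome 9, 21420613 to 21508674, plus strand), the gene of the ATPase BRG1, was below wild type in ZnF4-/- in the 50 bp batch and close to it at 76 bp. It was at 63.9, 105 and 96.2 RPKM in wild type replicates 1, 2A and 2B, at 78.2 and 98.6 RPKM in ZnF1-/- replicates 1 and 2, and at 63.2 and 74.3 RPKM in ZnF4-/- replicates 1 and 2. ZnF4-/- thus differed from wild type by -1.0% at 76 bp and by -26.3% at 50 bp. Both ZnF4-/- libraries were below both ZnF1-/- libraries, but within or near the wild type range. The log2 fold change in ZnF4-/- was -0.33 ± 0.25 against wild type (adjusted p = 0.869) and -0.35 ± 0.27 against ZnF1-/- (adjusted p = 0.957). In the blocked fit these were -0.26 ± 0.12 (adjusted p = 0.275) and -0.35 ± 0.13 (adjusted p = 0.179). Smarca2, which encodes the alternative ATPase BRM, was at 15.5 ± 2.76 RPKM in wild type and 16.9 ± 3.18 RPKM in ZnF4-/-. Smarca4 exceeded it by 5.20 to 6.16 times in wild type, 4.72 and 5.44 times in ZnF1-/- and 4.33 and 3.89 times in ZnF4-/-, where the last group lay below the others.

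Smarcb1 (chromosome 10, 75359514 to 75384362, minus strand), which encodes the core subunit SNF5, was higher than wild type in both mutants at 76 bp. At 50 bp Smarcb1 was above wild type by a smaller margin in ZnF1-/- and close to it in ZnF4-/-. It was at 22.0, 34.8 and 33.4 RPKM in wild type replicates 1, 2A and 2B, at 28.9 and 37.8 RPKM in ZnF1-/- replicates 1 and 2, and at 29.0 and 34.2 RPKM in ZnF4-/- replicates 1 and 2. The mutants differed from wild type by 31.1% and 31.4% at 76 bp, and by 10.6% in ZnF1-/- and 0.161% in ZnF4-/- at 50 bp. Wild type replicate 1 was the lowest library. Neither mutant passed, with a smallest adjusted p of 0.472 in ZnF4-/- and 0.624 in ZnF1-/-, both in the blocked fit.

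Smarcc1 (chromosome 9, 110034541 to 110142682, plus strand), which encodes the scaffold subunit BAF155, was at 32.2, 38.6 and 39.3 RPKM in wild type replicates 1, 2A and 2B. It was at 38.6 and 39.9 RPKM in ZnF1-/- replicates 1 and 2, and at 31.9 and 35.3 RPKM in ZnF4-/- replicates 1 and 2. The 2 mutants did not overlap each other, and wild type overlapped each of them. The blocked log2 fold change of ZnF4-/- against ZnF1-/- was -0.22 ± 0.10 (adjusted p = 0.276). Its paralog Smarcc2, which encodes BAF170, was more abundant, at 66.3 ± 16.9 RPKM in wild type. The ratio of Smarcc1 to Smarcc2 ran from 0.509 to 0.686 in wild type, and the mutants, at 0.551 to 0.699, overlapped that range.

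Ctbp1 (chromosome 5, 33590372 to 33617618, minus strand), which encodes a corepressor that senses NADH, had the largest spread between libraries of the 10. It was at 44.4, 99.3 and 85.4 RPKM in wild type replicates 1, 2A and 2B, at 49.7 and 84.4 RPKM in ZnF1-/- replicates 1 and 2, and at 47.9 and 70.2 RPKM in ZnF4-/- replicates 1 and 2. The 3 libraries at 76 bp were all below the 4 at 50 bp, and the genotypes overlapped. Against wild type of the same batch, ZnF4-/- differed by 7.72% at 76 bp and by -24.0% at 50 bp, so the directions were opposite. The log2 fold change was -0.32 ± 0.39 in ZnF4-/- (adjusted p = 0.965) and -0.16 ± 0.39 in ZnF1-/-. The listed transcript of its paralog Ctbp2 was at 0.14 to 0.58 RPKM in the 7 libraries, under the filter. The ratio of Ctbp1 to Ctbp2 ran from 82.5 to 709 and is set by values so near 0 that adding 0.5 RPKM to both genes took the wild type mean from 473 to 116, so nothing is read from it. Annotated exons of Ctbp2 and Fgfr2 share up to 210 bases on 1 strand, and their reads there cannot be told apart.

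Sin3a (chromosome 9, 56919847 to 56976173, plus strand), the scaffold of the SIN3 deacetylase complex, differed little between genotypes. It was at 31.0, 39.2 and 41.3 RPKM in wild type replicates 1, 2A and 2B, at 29.5 and 37.6 RPKM in ZnF1-/- replicates 1 and 2, and at 28.3 and 37.1 RPKM in ZnF4-/- replicates 1 and 2. Each mutant library was below wild type of its batch, by between -5.00% and -8.67%. Blocked log2 fold changes were small, at -0.08 ± 0.09 for ZnF1-/- (adjusted p = 0.874) and -0.12 ± 0.09 for ZnF4-/- (adjusted p = 0.505). Its paralog Sin3b (chromosome 8, 75247187 to 75282102, plus strand) was at 34.5, 57.4 and 51.2 RPKM in wild type and at 29.2 and 34.9 RPKM in ZnF4-/-. The log2 fold change of Sin3b in ZnF4-/- was -0.54 ± 0.28 (adjusted p = 0.677; blocked -0.45 ± 0.12, adjusted p = 0.0667). The ratio of Sin3a to Sin3b was 0.682 to 0.899 in wild type, 0.684 and 0.859 in ZnF1-/- and 0.969 and 1.06 in ZnF4-/-, where ZnF4-/- lay above the others. Exons of Ezh2, Suz12 and Sin3a overlap long non-coding genes on the opposite strand by up to 92, 178 and 103 bases, and the strand of the counting was not given in the sources used here.

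Counted over the 10 genes, 0 were called by limma in any of the 3 comparisons. The shares of all tested genes called were 0.0857% for ZnF1-/- and 2.54% for ZnF4-/-, each set against wild type, and 2.34% between the mutants. At an unadjusted p under 0.05 the count was also 0 in each comparison, where 3.85%, 10.1% and 9.17% of all tested genes lay. The blocked fit called 0 of the 10 as well, against 0.876%, 8.22% and 7.29% of all tested genes. At an unadjusted p under 0.05 in the blocked fit, 0 of the 10 were counted in ZnF1-/- against wild type (8.73% of all tested genes). In ZnF4-/- the count was 2, Ezh2 and Eed, against wild type (20.5%) and 2, Ezh2 and Smarca4, against ZnF1-/- (20.2%), and all 4 of these values were negative. These shares of 10 are at or below the share of all genes. The 95% intervals of the blocked fit lay within a 1.5-fold change in either direction for 10 of 10 genes in ZnF1-/- and for 10 of 10 in ZnF4-/- against wild type. They did so for 8 of 10 in ZnF4-/- against ZnF1-/-, the other two being Ezh2 and Smarca4. Without the block the counts were 5, 4 and 3 of 10, in the same order.

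**Figure D3:**
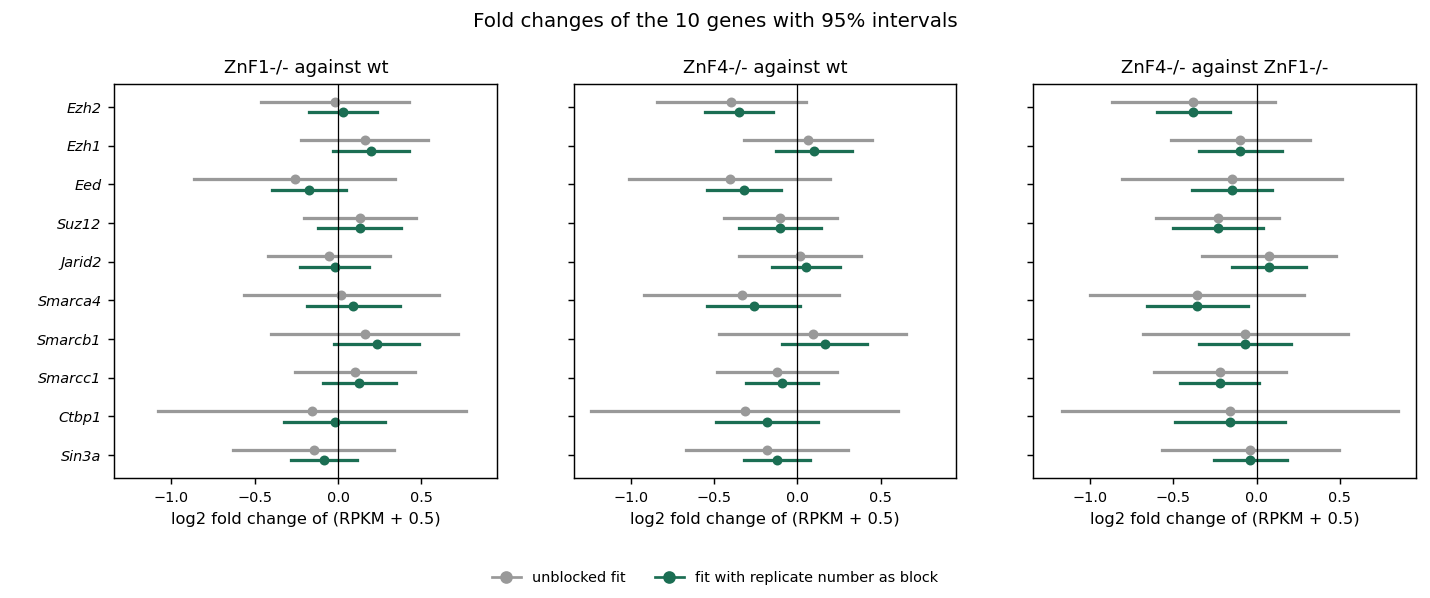
Log2 fold change of RPKM + 0.5 (horizontal axes) for each of the 10 genes in 3 comparisons, with 95% intervals, in grey without and in green with the replicate number as a block. In the green fit the interval of Ezh2 lies below 0 in both comparisons of ZnF4-/- (-0.55 to -0.14 and -0.60 to -0.16), yet no gene passed after adjustment over all tested genes.

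Against wild type of the same batch, 5 of the 10 genes were higher and 2 lower in both batches in ZnF1-/-, where 31.8% and 26.1% of all tested genes were. In ZnF4-/-, 3 were higher and 5 lower in both batches, against 25.1% and 29.2% of all tested genes. ZnF4-/- was below ZnF1-/- in both batches for 8 of the 10 genes and above for 1, Jarid2, against 37.3% and 26.6% of all tested genes. Smarcb1 was the 1 gene with opposite signs in that comparison. Suz12 was the 1 gene whose ZnF1-/- libraries were all above wild type (6.85% of all tested genes), and 0 were all below (6.99%). For ZnF4-/-, Ezh2 was the 1 gene wholly below wild type (10.6%), and 0 were wholly above (12.5%). In ZnF4-/- against ZnF1-/-, Ezh2, Suz12, Smarca4 and Smarcc1, or 4 of 10, were lower without overlap (16.8%), and 0 were higher (15.2%). The comparisons share libraries and are not independent. The median log2 fold change of the 10 genes was 0.00 in ZnF1-/- and -0.15 in ZnF4-/- against wild type, beside -0.02 and -0.05 over all tested genes.

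For several of these genes the sequencing batch went with larger differences than the genotype. In wild type, the 50 bp libraries were above the 76 bp library by a median of 0.32 log2 units over the 10 genes and 0.23 over all tested genes. The batch difference of Ctbp1 was 1.04 log2 units in wild type, above 97.9% of all tested genes, 0.76 in ZnF1-/- and 0.55 in ZnF4-/-. That of Smarca4 was 0.65 in wild type, 0.33 in ZnF1-/- and 0.23 in ZnF4-/-. Suz12 was the only 1 of the 10 below its 76 bp level in wild type (-0.09) and in ZnF1-/- (-0.07), and in ZnF4-/- it was 0.16 above. Sex, instrument and read length changed together between the batches and cannot be told apart.

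**Figure D4:**
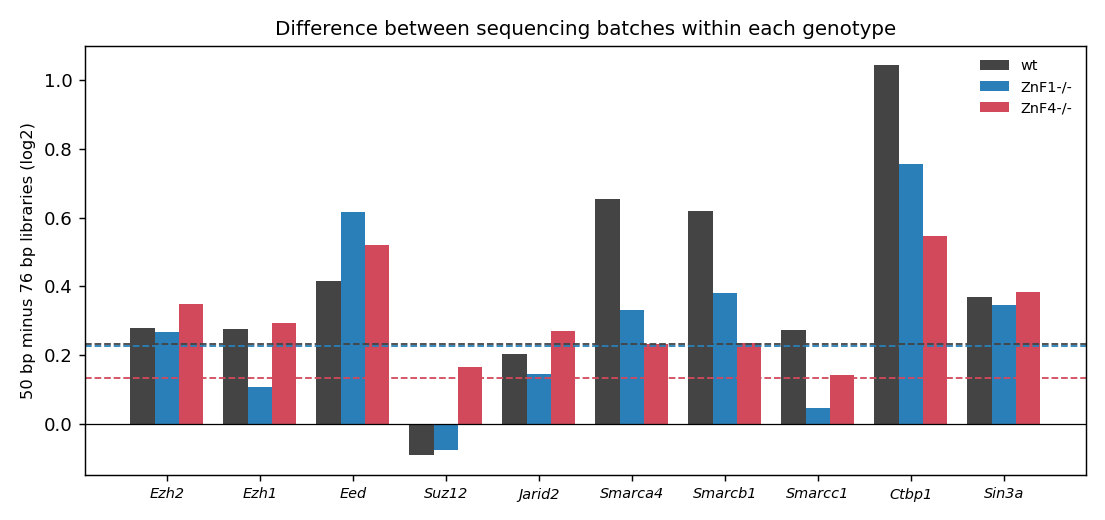
Difference between the 50 bp and the 76 bp libraries in log2 units (vertical axis) for each of the 10 genes, with 1 bar per genotype and dashed lines at the median of all tested genes in that genotype. Ctbp1 has the tallest bars, from 0.55 to 1.04, and the bars of Smarca4, Smarcb1 and Ctbp1 are in the order wild type, ZnF1-/-, ZnF4-/-.

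The other genes of these complexes were examined in lists. In the unblocked fit 0 genes of any list passed in any comparison. The PRC2 list held 11 tested genes and 0 passed in the blocked fit, with a median log2 fold change of -0.13 in ZnF4-/-. Of 17 tested genes of PRC1 and its partners, only some of which read the PRC2 mark, 0 passed. The 2 with the largest differences were Cbx8, at 7.20 RPKM in wild type and 5.35 RPKM in ZnF4-/-, and Phc3, at 11.8 and 14.5 RPKM. Cbx8 in ZnF4-/- was above wild type at 76 bp (5.39 against 4.95 RPKM) and below it at 50 bp (5.31 against 8.75 and 7.89 RPKM). The H3K27 demethylase genes Kdm6a, Kdm6b and Uty gave 0 calls. Kdm6b was at 33.8 to 56.4 RPKM in wild type and 45.3 and 53.5 RPKM in ZnF4-/-, and the Y-linked Uty ranged from 4.93 to 6.32 RPKM at 50 bp and was at most 0.01 RPKM at 76 bp. Of 24 SWI/SNF genes 0 passed in the blocked fit either. Actl6a was at 20.5 RPKM in wild type and 15.3 RPKM in ZnF4-/-, and Ss18l1 at 4.09 and 2.94 RPKM. Of 20 tested genes of the SIN3 complex 0 passed, with Sin3b and the deacetylase gene Hdac2 (41.1 and 33.0 RPKM) lowest relative to wild type. The 6 genes of the NCoR corepressors gave 0 calls, with Ncor1 at 66.9 RPKM in wild type and 72.5 RPKM in ZnF4-/-.

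In the list of CtBP and CoREST corepressors, 2 of 14 tested genes rose in ZnF4-/- against wild type in the blocked fit, which called 8.22% of all tested genes in either direction. Rcor3, which encodes a CoREST protein that holds the demethylase LSD1, was at 3.99, 5.41 and 5.35 RPKM in wild type replicates 1, 2A and 2B and at 7.85 and 7.87 RPKM in ZnF4-/-. In ZnF1-/- Rcor3 was at 3.65 and 4.27 RPKM, so both ZnF4-/- libraries stood above all others. Its log2 fold change against wild type was 0.64 ± 0.17 (adjusted p = 0.157) and 0.67 ± 0.13 in the blocked fit (adjusted p = 0.0145). Rcor3 also rose against ZnF1-/- in the blocked fit (adjusted p = 0.00586; 0.0627 without the block). Zfp217, the gene of a zinc finger protein that binds CtBP, was at 14.2, 19.2 and 17.7 RPKM in wild type and at 20.6 and 23.3 RPKM in ZnF4-/-, with a blocked log2 fold change of 0.41 ± 0.10 (adjusted p = 0.045) and 0.37 ± 0.17 without the block (adjusted p = 0.572).

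**Figure D5:**
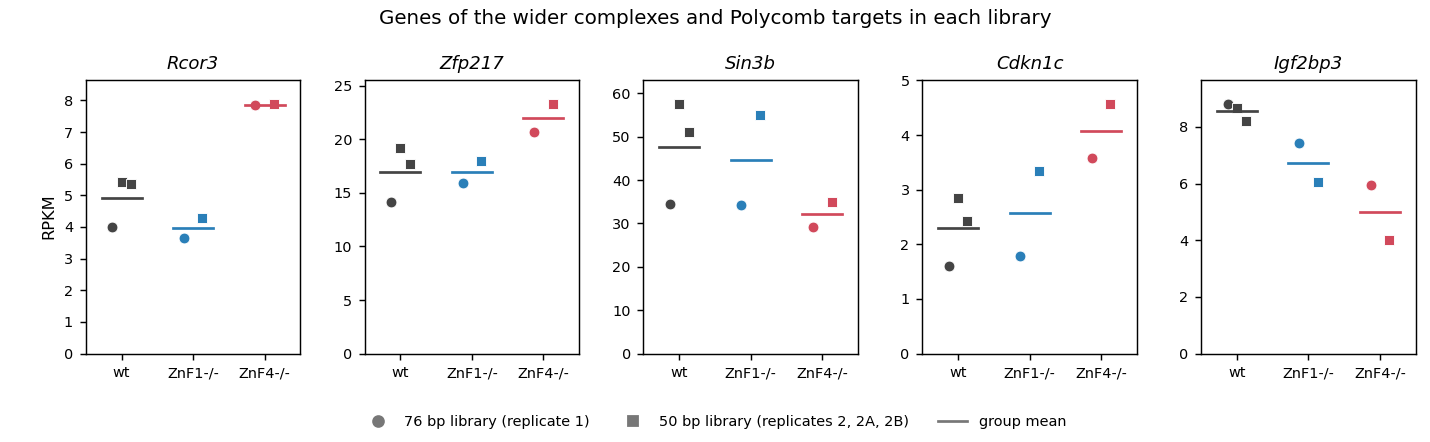
Level in RPKM (vertical axes, from 0) of 5 genes outside the 10, by genotype, with 1 point per library, circles for 76 bp and squares for 50 bp reads, and a line at the group mean. Both ZnF4-/- points of Rcor3, at 7.85 and 7.87 RPKM, lie above all other libraries, and those of Igf2bp3, at 5.96 and 4.00 RPKM, lie below.

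As a measure of likeness, the difference of each of the 4 mutant libraries from wild type of its batch was compared between genes by root mean square. The 3 of the 10 genes with the largest mean difference were Eed (0.26 log2 units), Smarcb1 (0.23) and Ctbp1 (0.20). Nearest to Eed were Pdhb (0.03), Ost4 (0.03) and Setd3 (0.03), nearest to Smarcb1 were Pip5k1c (0.03), Aimp1 (0.04) and Cry2 (0.04), and nearest to Ctbp1 were Tbc1d10a (0.01), Camk2a (0.02) and Calm3 (0.03). Each likeness rests on 4 values, searched over 10498 genes.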

How the data were processed

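The authors deposited 1 table of RPKM per gene. They computed it in SeqMonk from exonic reads, using NCBI's mm9 annotation, with 1 transcript kept for each gene and genes without any read left out, per the labels' design text. TopHat and bedtools are named in the submitters' processing notes, without versions. Gene positions are from GENCODE vM1, which is on the same build. The deposited RPKM were log2 transformed after adding 0.5, which understates the fold changes of low genes, and limma 3.58.1 in R 4.3.3 tested the 10498 genes whose mean over the libraries reached 1 RPKM (eBayes with a trend, all 3 groups in 1 fit, two-sided, Benjamini-Hochberg over all tested genes, threshold 0.05). Since no label ties the libraries to separate animals, each p reflects only the spread among these libraries, which may be technical.

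The replicate number marks the instrument and read length in the labels. Deviations of same-numbered libraries from their group means correlated across genes at 0.489 to 0.737 in 8 pairs, so a fit with that number as a block is given beside the unblocked one. The pairs are not independent, because deviations within a group sum to 0. The pair of mutants thus gave the same value, 0.658, in each batch.

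The 10 genes and the gene lists were chosen with earlier results of these data known. From each list, genes that passed in either fit are named, otherwise the 2 with the largest difference in ZnF4-/-, of which 1 is not reported here. The procedure was tested on simulated data, where the unblocked fit missed the changes put in and the blocked fit found only a part. A count of 0 calls therefore does not show that a gene was unchanged. The alternatives tried were other pseudocounts, filters, scalings, fits and omitted libraries.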

Additional observations from a re-analysis of the deposited data

How the results depend on the processing

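In 21 alternatives, 4 of them added after seeing the data, 0 of the 10 genes were called, except that 1, Ezh2, was called in ZnF4-/- against wild type by the replicate block with a common median. The 30 fold changes of the 10 genes gave 630 values, of which 39 changed sign and 590 kept sign and call; 13 of the 30 did not change sign in any alternative. The cause of the changes was not tested. Genes called in ZnF1-/- against wild type were 9, and 3 with no filter, 17 with a common median, 14 with quantile normalization, 14 without a trend, 5 with only the 2 groups compared, 1 with wild type 2A and 2B averaged and 92 with the replicate block. With the block and a common median, no trend, a pseudocount of 1 or 2A and 2B averaged they were 133, 105, 92 and 25. In ZnF4-/- against wild type they were 267, and 596 with no filter, 130 with 2A and 2B averaged and 863 with the replicate block, or 1007, 828, 869 and 580 with the same 4 additions. In ZnF4-/- against ZnF1-/- they were 246, and 576 with no filter and 765 with the replicate block, or 894, 754, 774 and 606. Leaving out 1 library gave 1 to 10, 44 to 253 and 90 to 318 calls in these comparisons, in that order. ZnF1-/- against wild type gave 1 call without ZnF1-/- replicate 1 or wild type 2B. ZnF4-/- against wild type gave 44 and 87 without its own replicates 2 and 1, and 164 and 119 without wild type 2A and 2B. ZnF4-/- against ZnF1-/- gave 90 without ZnF4-/- replicate 2.

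Ezh2 in ZnF1-/- changed sign to 0.0239 with quantile normalization, 0.0312 with the replicate block (0.0113, 0.0312, 0.0310 and 0.0283 with the 4 additions) and 0.0283 with 2A and 2B averaged. Ctbp1 in ZnF1-/- changed to 0.0161 with 2A and 2B averaged, with and without the block, and Sin3a in ZnF4-/- against ZnF1-/- to 0.0224 with quantile normalization. Leaving out 1 library gave, in ZnF1-/- against wild type, -0.1522 to 0.1156 for Ezh2, -0.5663 to 0.0490 for Eed, -0.1286 to 0.0176 for Jarid2, -0.1970 to 0.1871 for Smarca4, -0.0461 to 0.3504 for Smarcb1, -0.5344 to 0.2229 for Ctbp1 and -0.3182 to 0.0272 for Sin3a. In ZnF4-/- against wild type it gave -0.0840 to 0.2111 for Ezh1, -0.1168 to 0.1531 for Jarid2, -0.1150 to 0.2094 for Smarcb1 and -0.3741 to 0.0097 for Sin3a. In ZnF4-/- against ZnF1-/- it gave -0.2447 to 0.0504 for Ezh1, -0.4553 to 0.1600 for Eed, -0.0613 to 0.2086 for Jarid2, -0.2590 to 0.1211 for Smarcb1, -0.5385 to 0.2188 for Ctbp1 and -0.2286 to 0.1552 for Sin3a. Where 1 library of a mutant was left, it was assumed to vary like the other groups. With 0.5 RPKM added to both genes, the mean Ezh2 to Ezh1 ratio in ZnF4-/- was 4.75 in place of 4.90, and the mean Ctbp1 to Ctbp2 ratio in wild type 116 in place of 473.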

Other observations

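Polycomb targets themselves were looked at as a list of 22 textbook examples, of which 16 were in the table and 2 reached the filter. The cell cycle inhibitor gene Cdkn2a, a classic target of PRC2, was at 0 to 0.15 RPKM in the 7 libraries, and Cdkn2b at 0 to 0.34 RPKM. Of the 2 tested genes, Cdkn1c, an imprinted inhibitor of cyclin-dependent kinases, was at 1.61, 2.84 and 2.42 RPKM in wild type replicates 1, 2A and 2B and at 3.58 and 4.56 RPKM in ZnF4-/-. It rose in the blocked fit (log2 fold change 0.82 ± 0.15, adjusted p = 0.0136) and did not pass without the block (adjusted p = 0.44). Igf2bp3, better known as an RNA-binding protein of fetal cells, was at 8.79, 8.67 and 8.21 RPKM in wild type, 7.43 and 6.05 RPKM in ZnF1-/- and 5.96 and 4.00 RPKM in ZnF4-/-. It fell in the blocked fit (-0.79 ± 0.13, adjusted p = 0.0087, and 0.125 without the block). The blocked fit called 8.22% of all tested genes in this comparison, in either direction. With only 2 tested genes, 1 higher and 1 lower, nothing is read about Polycomb targets as a group.

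Below the filter, 2 genes of the HOXA cluster, which are expressed in early progenitors, stood out in ZnF4-/-, and both were singled out after their values were seen. Hoxa7 was at 0.74, 1.76 and 1.08 RPKM in wild type replicates 1, 2A and 2B and at 0.63 and 1.03 RPKM in ZnF1-/-, but it was listed at 0 and 0.01 RPKM in ZnF4-/-. Hoxa5 was at 0.74, 0.52 and 0.35 RPKM in wild type, at 0.22 and 0.41 RPKM in ZnF1-/- and listed at 0 in both ZnF4-/- libraries. With no filter, and adjusted over 16734 genes, both passed in ZnF4-/- against wild type (Hoxa7 adjusted p = 0.0284, blocked 0.018; Hoxa5 adjusted p = 0.0364, blocked 0.042). Of the 16734 genes, 596 were called by the unblocked fit without the filter, and calls of the blocked fit without the filter were not counted. The neighbouring Hoxa9 was at 0 to 0.07 RPKM in the 7 libraries. At these levels the number of reads behind a value is unknown.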
